A study of Mus musculus with 3 samples.

Results

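Tumour cells that lay in the most crowded 100 µm squares of a section were compared with tumour cells in its emptiest squares, within each of 3 mouse mammary tumours. Each section was divided into square bins of 100 µm, every listed cell was counted, and bins with at least 10 cells were ranked by their cell number. Dense bins were the top quartile of that ranking in their section and sparse bins the bottom quartile, so the members were chosen by cells per bin and by their counts of Cdh1 and Col1a1. A tumour cell was a cell with at least 20 panel transcripts, at least 1 transcript of Cdh1 (E-cadherin, the adhesion protein of epithelial cells) and under 10% of its transcripts from Col1a1 (a fibrillar collagen made mainly by fibroblasts). This gate held 674393 of 1963273 listed cells, and 324157 of them lay in the bins compared, 276245 in dense and 47912 in sparse bins.

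The sections were formalin-fixed and paraffin-embedded, 1 from each of 3 tumours labelled MMTV-PyMT WT, with no treatment stated. In this model the mouse mammary tumour virus promoter drives the polyoma middle T oncogene in mammary epithelium; the labels used here do not say what WT refers to or how old the mice were. Transcripts were read in place by MERFISH, which decodes single RNA molecules over rounds of fluorescence imaging, on the MERSCOPE instrument, and the series names spatial heterogeneity of transcription as its subject. The tables used here hold 258 genes and 27 blank codes, barcodes that match no gene and so measure false decoding. All 3 tumours formed a single group, so the comparison is between places within a tumour, paired by tumour (n = 3). The labels used here do not say whether the tumours came from separate mice. The tests therefore refer to the spread, over these tumours, of the difference between arms, together with a spread shared across genes.

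Local crowding can differ within a carcinoma between solid nests, cystic or necrotic places and the edge of the tissue. Epithelial cells sense it through cell contacts, tension and shared secreted signals, and the Wnt, Notch and Hippo pathways are known to take part in such signalling in the mammary gland. Wnt ligands act on Frizzled and LRP receptors and are held back by secreted inhibitors, while Notch ligands on one cell act on receptors of the next.

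The number of cells that set a bin apart differed between sections. Dense bins held at least 158, 87 and 130 cells in tumours 1, 2 and 3, and the bins just outside held 157, 86 and 129. Sparse bins held at most 103, 41 and 66 cells, and the bins just outside held 104, 42 and 67. A dense bin of tumour 2 could thus hold fewer cells than a sparse bin of tumour 1. There were 1334, 1947 and 2065 dense bins with medians of 168, 106 and 145 cells, and 1352, 1986 and 2059 sparse bins with medians of 55.5, 27 and 42 cells. Dense bins lay together: of the 8 bins around a dense bin, 4.31, 4.53 and 4.70 on average were also dense. Many sparse bins were rims or borders of holes, and 44.5%, 56.6% and 61.6% of them touched a square with under 10 cells, against 0.525%, 7.24% and 1.69% of dense bins.

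**Figure D1:**
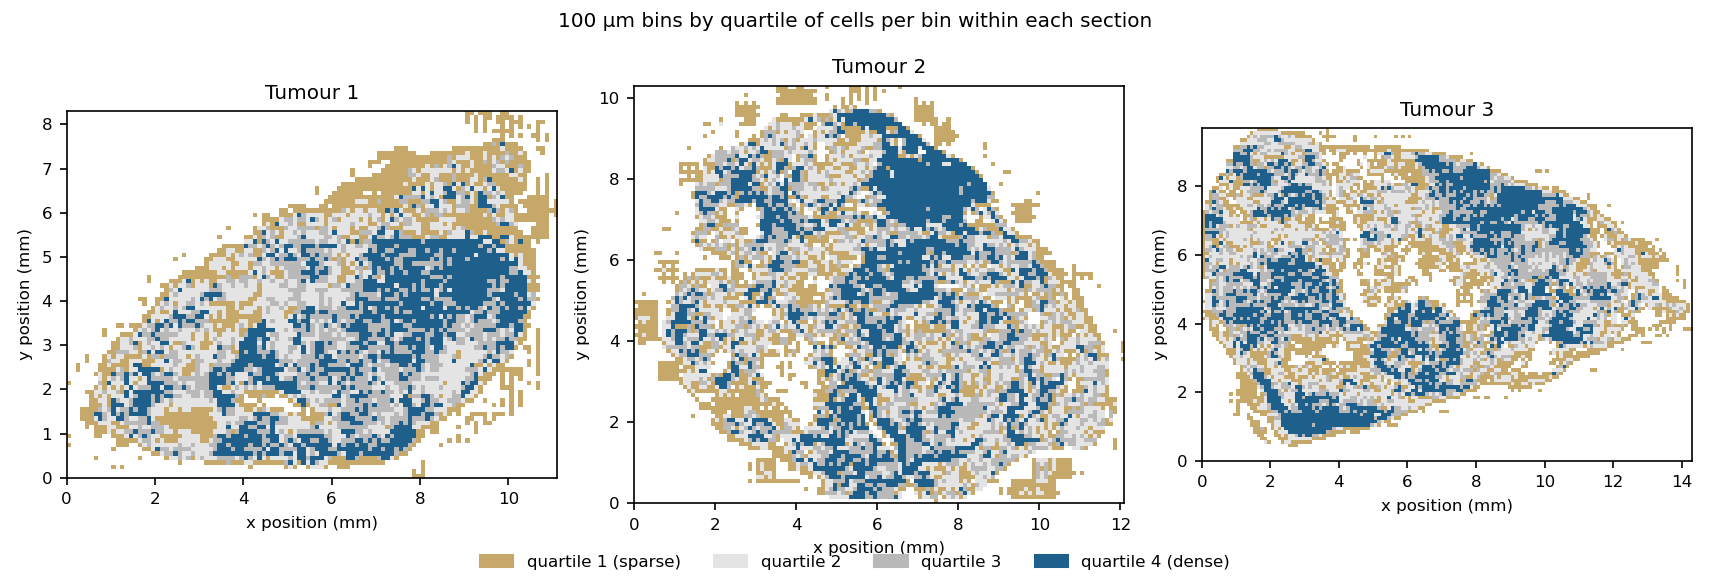
Maps of the 3 sections with each 100 µm bin coloured by its quartile of listed cells per bin within that section; axes give position in mm, blue is the dense quartile, tan the sparse quartile, and white squares hold under 10 cells. Dense bins formed connected areas (about 4 to 5 dense neighbours out of 8), and sparse bins lay along the outer rim and around holes as well as between other bins.

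Tumour cells were smaller where cells were dense. Their median volume in dense bins was 568, 695 and 652 µm3 in tumours 1 to 3, and in sparse bins 717, 873 and 829 µm3, or 638 ± 65.0 against 806 ± 80.5 (mean ± SD, n = 3). The arms did not overlap, and since crowding defined the arms this is a description. A dense bin held a median of 74, 44 and 43 tumour cells and a sparse bin 12, 4 and 3. Median transcripts per tumour cell were 113, 153 and 130 in dense and 137, 136 and 132 in sparse bins, which overlap. The blank codes took 0.457%, 0.388% and 0.417% of decoded transcripts in dense tumour cells and 0.563%, 0.566% and 0.606% in sparse ones, so that false decoding took a larger share in the sparse arm of every tumour. Listed cells with under 20 transcripts were also more frequent there, 16.2%, 37.7% and 29.7% against 4.34%, 5.60% and 11.0%.

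The surroundings differed as well. Of cells with at least 20 transcripts, 20.1%, 13.7% and 15.7% were rich in Col1a1 (10% or more) in sparse bins and 5.81%, 8.60% and 4.68% in dense bins. These cells were unevenly spread. Of all listed cells in a bin, they made up a median of 12.5%, 0% and 2.94% in sparse and 4.58%, 5.61% and 2.11% in dense bins. Cells with at least 2 transcripts of the endothelial genes Pecam1 and Cdh5 made up 6.76%, 2.91% and 1.61% in sparse and 1.77%, 2.46% and 0.973% in dense bins. For the macrophage genes Adgre1 and Cx3cr1 the shares were 6.07%, 3.20% and 1.23% in sparse and 3.49%, 3.84% and 0.723% in dense bins, with tumour 2 in the opposite direction. The 2 genes of the gate are given as a check only: the Cdh1 level of gated cells was 9.97 to 13.7 per 1000 panel transcripts in dense bins and 8.96 to 12.2 in sparse bins. Col1a1 was at 13.1, 15.0 and 11.6 in dense and 18.4, 10.5 and 8.39 in sparse bins. All other levels below are in the same unit, counts per 1000 panel transcripts of the summed tumour cells.

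Transcripts of the tumour cells were summed per tumour and arm, and the 6 sums were compared in edgeR's quasi-likelihood test with the tumour as a block. Of 256 genes tested, 51 passed an adjusted p of 0.05 (19.9%), 22 higher in dense bins (8.59%) and 29 lower (11.3%), and at an unadjusted p of 0.05 the counts were 38 and 51. The direction went with the level of the gene. Among 105 genes above the highest blank code in all 6 sums, 13 were higher (12.4%) and 3 lower (2.86%), and their median log2 fold change, dense over sparse, was 0.17. Of the other 151 genes, 9 were higher (5.96%) and 26 lower (17.2%), with a median of -0.20. The blank codes themselves were lower in dense bins for 25 of 27, with a median log2 fold change of -0.29, and 6 of them passed as lower and 0 as higher in the same edgeR fit. Of the 29 lower genes, 21 were above the highest blank code in no sum. The part of false decoding in those calls was not tested.

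**Figure D2:**
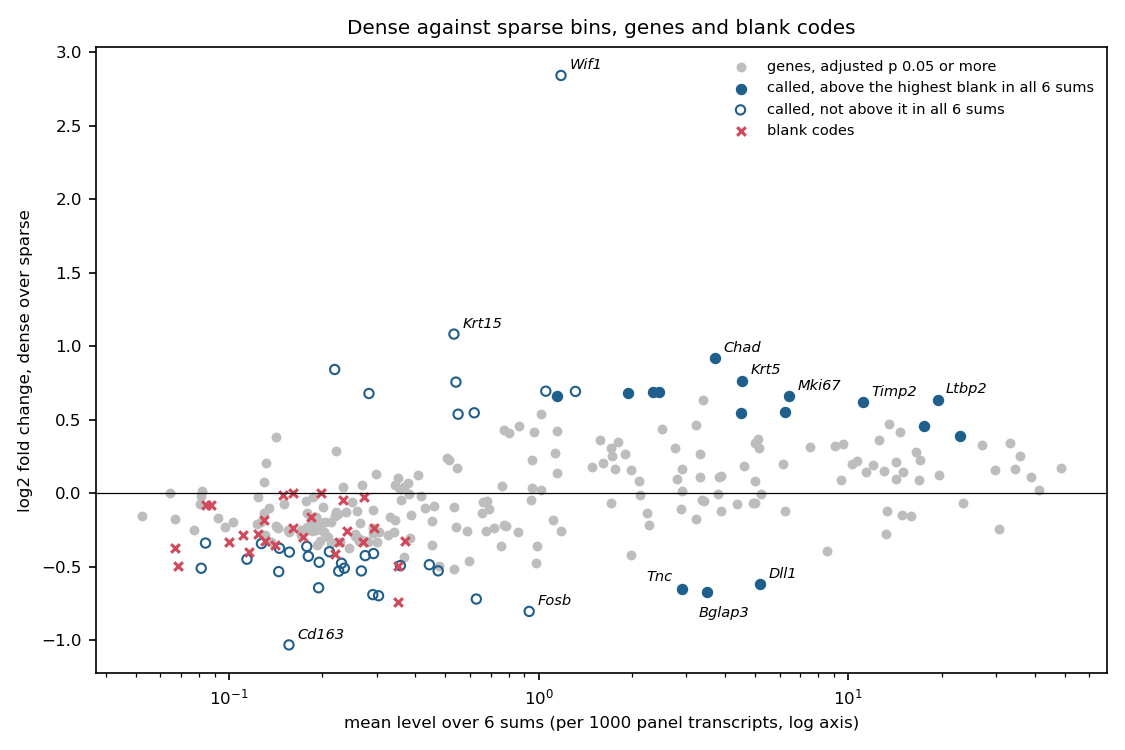
Log2 fold change of dense over sparse tumour cells (y axis) against the mean level over the 6 sums (x axis, log scale, per 1000 panel transcripts) for 256 genes and 27 blank codes. Wif1 stands alone at 2.84, called genes above the blanks lie between -0.67 and 0.92, and the blank codes (crosses) and most called genes of low level lie below 0.

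Wif1, a secreted inhibitor that binds Wnt ligands, differed most between dense and sparse tumour cells. It is described although it lies outside the naming rule, because it was singled out after its values were seen: its sparse sums in tumours 2 and 3 were not above the highest blank code. Its level in dense bins was 3.33, 1.27 and 1.50 in tumours 1, 2 and 3, and in sparse bins 0.533, 0.141 and 0.305. The lowest dense value lay above the highest sparse value, so the arms did not overlap. The log2 fold change was 2.84 ± 0.23 (± SE, adjusted p = 2.9e-11, edgeR quasi-likelihood test). After edgeR's TMM scaling the 3 tumours gave log2 ratios of 2.76, 3.27 and 2.51. The sparse level of tumour 2 lay under the mean blank code of that sum, 0.211, so the fold there is a ratio to a level not told apart from false decoding.

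Wif1 did not follow density in one way. In tumour 1 its level went from 0.533 in the sparsest quartile of bins through 1.49 and 2.55 to 3.33 in the densest, and in tumour 3 from 0.305 through 0.471 and 1.12 to 1.50. In tumour 2 the 3 lower quartiles held 0.141, 0.0896 and 0.117, and the densest alone stood apart at 1.27. The transcripts were concentrated in few places in tumour 2. The tenth of dense bins with the most Wif1 held 34.2%, 74.2% and 41.7% of all Wif1 transcripts of dense tumour cells. The same share was 40.8%, 44.9% and 64.4% for Krt5, 33.1%, 43.8% and 40.7% for Chad, and 21.1%, 29.4% and 28.0% for Ltbp2. In tumours 1 and 3 Wif1 thus lay within the range of these genes. The median dense bin of tumour 2 (among bins with at least 500 panel transcripts) had a Wif1 level of 0.0784 against 2.80 in tumour 1. When dense and sparse bins were compared only inside the same 1000 µm tile, the log2 fold change was 1.34 (adjusted p = 0.0137, edgeR). Dense tumour cells had the higher level in 31 of 43 tiles of tumour 1, 33 of 59 of tumour 2 and 33 of 41 of tumour 3.

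Cells outside the gate were measured for Wif1 in the same bins. Cells with no Cdh1 transcript and under 10% Col1a1 had levels of 3.35, 1.69 and 1.58 in dense and 0.472, 0.124 and 0.348 in sparse bins, close to the gated cells of the same bins. In Col1a1-rich cells the levels were 2.21, 0.973 and 1.46 in dense and 1.23, 0.522 and 1.30 in sparse bins. The arms overlapped there across tumours, while dense was the higher arm in each tumour. Wif1 passed in 28 of 30 alternative analyses; without the tumour block the adjusted p was 0.0894, and with bins of 50 µm it was 0.0656 (both edgeR).

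**Figure D3:**
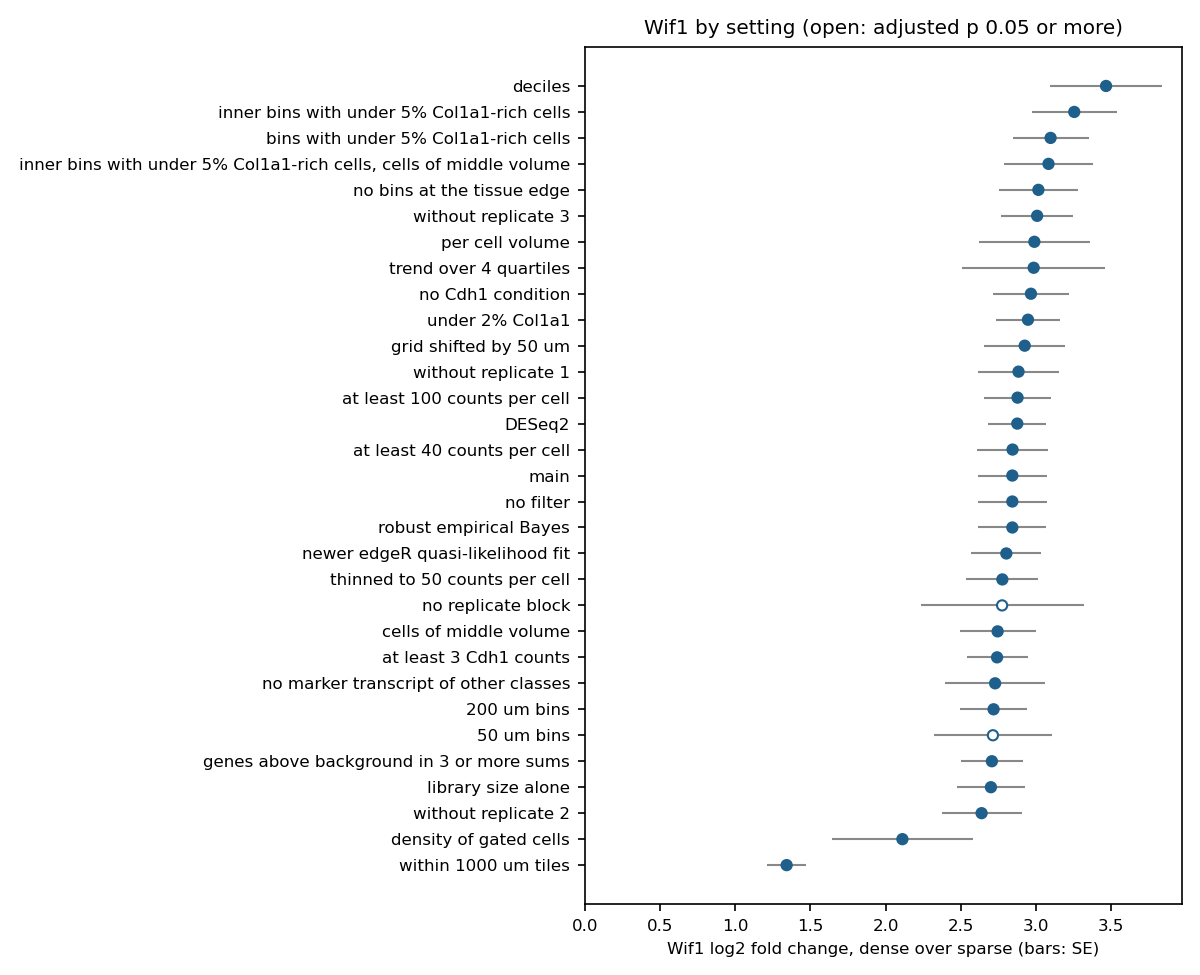
Wif1 log2 fold change of dense over sparse tumour cells (x axis; bars, SE) under the analysis reported and 30 alternatives (y axis); filled points passed an adjusted p of 0.05 and open points did not. Values run from 1.34 within 1000 µm tiles to 3.47 with deciles of bins, and 2 points are open.

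All other calls were lost when tumour 2 or tumour 3 was left out. With tumour 2 left out, or tumour 3 left out, 1 gene was higher and 0 lower in edgeR (26 and 37, and 13 and 18, at an unadjusted p of 0.05), and the gene was Wif1. With tumour 1 left out, 28 were higher and 36 lower. When only the 149 genes above the highest blank code in at least 3 sums entered the fit, Wif1 was again the single gene to pass. An exact sign-flip permutation over 3 pairs cannot give a two-sided p below 0.25. The calls below therefore lean on the spread that edgeR shares across genes, where 2 residual degrees of freedom stood beside 30.1 of the prior.

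Chad, Ltbp2 and Timp2, which belong to no gene list used here, had the lowest adjusted p among the genes above the blank codes. Chad, chondroadherin, a leucine-rich protein best known from cartilage matrix, had levels of 3.47, 4.23 and 6.35 in dense and 1.98, 2.58 and 3.62 in sparse tumour cells, a log2 fold change of 0.92 ± 0.20 (adjusted p = 0.0019, edgeR). Dense was the higher arm in every tumour, while the arms overlapped across tumours. Ltbp2, a relative of the latent TGF-beta binding proteins found on microfibrils, was at 19.4, 29.0 and 19.8 in dense and 15.0, 20.5 and 12.9 in sparse bins (0.64 ± 0.14, adjusted p = 0.0024, edgeR). Timp2, an inhibitor of matrix metalloproteinases, was at 17.6, 10.6 and 11.2 in dense and 9.98, 9.51 and 8.15 in sparse bins (0.62 ± 0.16, adjusted p = 0.0103, edgeR). For Timp2 the arms did not overlap, the difference being large in tumour 1 and small in tumour 2. In cells of middle volume (40th to 60th percentile of their section), Chad, Ltbp2, Timp2 and Wif1 were the 4 genes that passed as higher, and 0 passed as lower in edgeR, with 38 and 18 at an unadjusted p of 0.05. Within 1000 µm tiles the 3 values were smaller and did not pass in edgeR: Chad 0.52 and Ltbp2 0.31 (both adjusted p = 0.13), and Timp2 0.22 (adjusted p = 0.348). In tumour 2 Timp2 was lower in dense tumour cells in 38 of 59 tiles.

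Tnc, tenascin C, a matrix glycoprotein of remodelling tissue, was lower in dense bins. Its level was 2.06, 2.44 and 1.85 in dense and 3.49, 3.16 and 4.39 in sparse tumour cells, with arms that did not overlap (log2 fold change -0.65 ± 0.21, adjusted p = 0.0305, edgeR). Tumour 2 was less clear: its median bin had a Tnc level of 1.42 in dense and 0.941 in sparse bins, and dense was the higher arm in 34 of 59 tiles. Cells with no Cdh1 transcript of the same bins had Tnc at 2.21, 2.39 and 1.82 in dense and 4.18, 3.29 and 4.53 in sparse bins. In Col1a1-rich cells of the same bins Tnc was at 6.46, 12.2 and 7.90 in dense and 11.9, 10.8 and 18.7 in sparse bins. It was thus higher in sparse bins of tumours 1 and 3 and lower in those of tumour 2. Such cells made up a larger share in sparse bins, and their part in the difference was not tested. Bglap3, of the osteocalcin family, was also lower, at 1.74, 5.10 and 1.34 against 3.80, 6.22 and 2.73 (-0.67 ± 0.21, adjusted p = 0.0282, edgeR). Its family members are near-identical in sequence, and no source used here gives the specificity of the probes. Of 8 tested genes for basement membrane and matricellular proteins, Tnc was the 1 that passed, and their median log2 fold change was -0.01 against -0.07 over all genes tested. Fn1, fibronectin, was at 0.00 ± 0.20 and Thbs1, thrombospondin 1, at 0.11 ± 0.12, neither past the threshold.

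**Figure D4:**
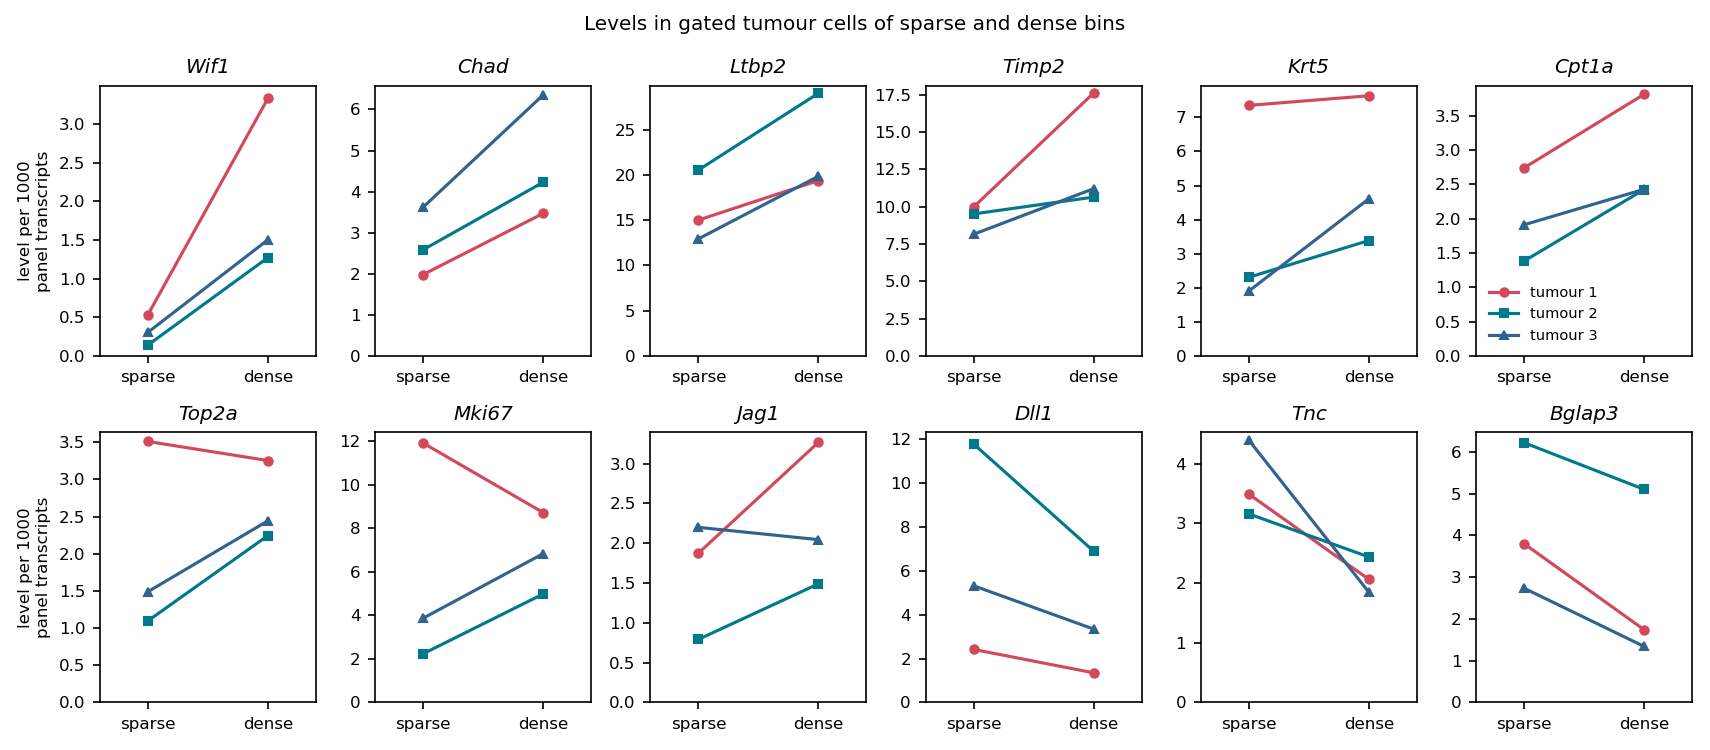
Levels of 12 genes (y axis, counts per 1000 panel transcripts, each axis from 0) in tumour cells of sparse and dense bins, 1 line per tumour. Wif1 and Chad lie higher in dense bins in all 3 tumours, Dll1, Tnc and Bglap3 lower, while Mki67 goes down in tumour 1 and up in tumours 2 and 3.

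Of the Wnt pathway, 26 genes were tested, and 4 were higher in dense tumour cells and 2 lower, a share near the 19.9% of all genes called, with a median log2 fold change of 0.07. Beside Wif1 these were Fzd2, a Wnt receptor, Tcf7l1, a TCF transcription factor, and Znrf3, a ubiquitin ligase that removes Wnt receptors from the cell surface. Fzd2 was at 6.98, 6.12 and 8.19 in dense and 5.10, 4.63 and 6.34 in sparse bins (0.55 ± 0.18, adjusted p = 0.0303, edgeR), and its level went up at each step over the 4 density quartiles in all 3 tumours. Tcf7l1 (0.70 ± 0.21) and Znrf3 (0.55 ± 0.19) were not above the highest blank code in every sum, and neither were the lower genes Wnt6 and Lgr5. The 3 Wnt genes of highest level were the receptor Lrp5 at 0.33 ± 0.13 (adjusted p = 0.0697, edgeR), the transcription factor Tcf7l2 at 0.10 ± 0.15 (adjusted p = 0.662) and the ligand Wnt5b at 0.47 ± 0.18 (adjusted p = 0.0607). None of them passed, and Wnt5b was higher in dense bins of tumour 1 (19.3 against 9.21) but lower in tumour 2 (12.4 against 14.5). Axin2, a feedback target of Wnt signalling, was at 0.823, 0.338 and 2.72 in dense and 0.802, 0.390 and 1.04 in sparse bins, with an adjusted p of 0.12 in edgeR.

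Among the Notch ligands, Dll1 and Jag1 passed in opposite directions. Dll1 was lower in dense tumour cells, at 1.35, 6.89 and 3.34 against 2.41, 11.8 and 5.31 in sparse ones (log2 fold change -0.62 ± 0.19, adjusted p = 0.0239, edgeR). Its levels differed more between tumours than between arms, yet in each tumour they went down at every step from the sparsest to the densest quartile. In cells with no Cdh1 transcript of the same bins, Dll1 was also lower in dense bins of every tumour. It was at 1.88, 8.42 and 3.50 in dense and 3.15, 13.8 and 6.95 in sparse bins there. Jag1 was higher in dense tumour cells, at 3.27, 1.49 and 2.04 against 1.87, 0.792 and 2.20 (0.68 ± 0.22, adjusted p = 0.0318, edgeR). In tumour 3 its plain level was lower in dense bins, and the sign there turned only with TMM scaling. Jag1 and Dll1 were the 2 of 11 tested Notch genes that passed, a share no higher than the 19.9% of all genes, with a median of 0.15 over the 11, and the receptors Notch1 (-0.06 ± 0.13), Notch2 (0.22 ± 0.16) and Notch3 (0.15 ± 0.16) did not pass.

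**Figure D5:**
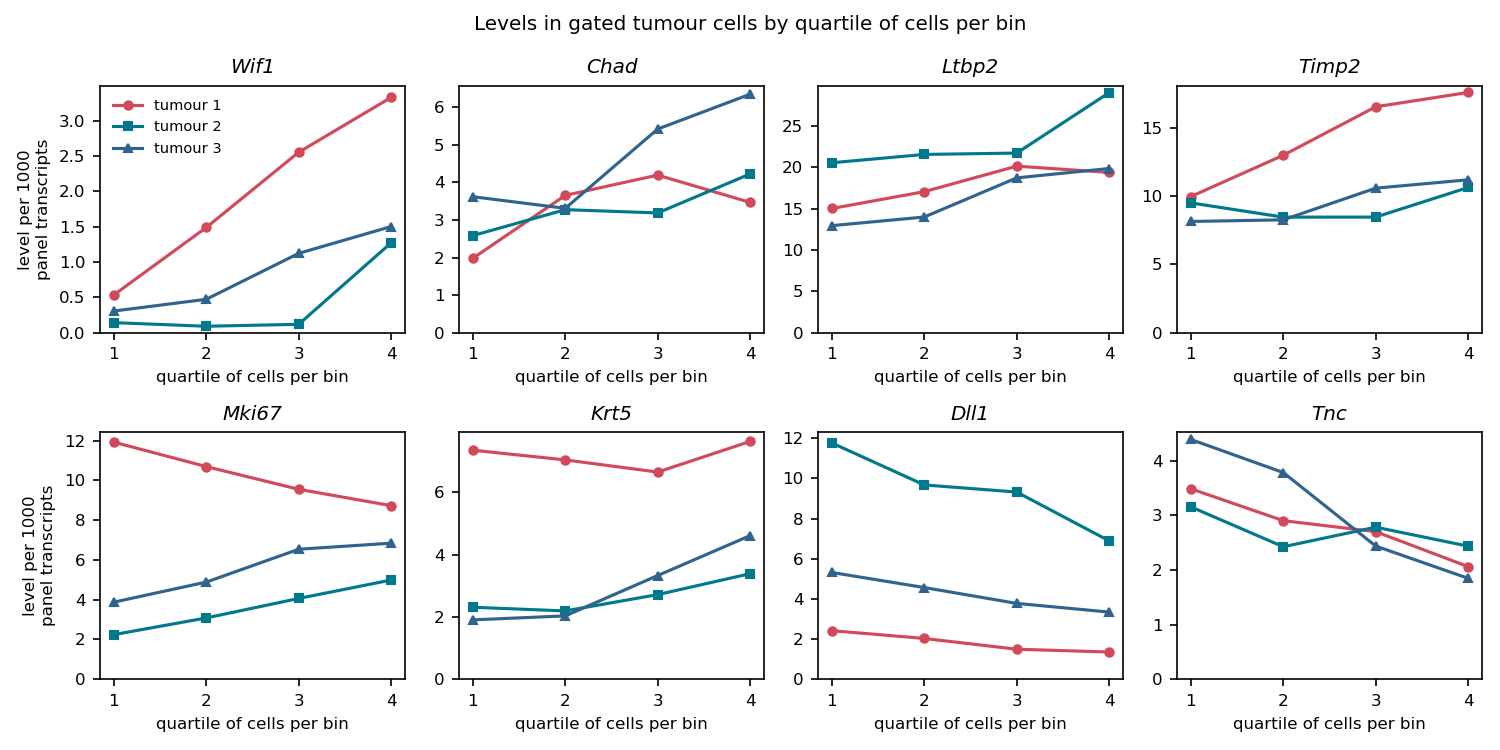
Levels of 8 genes (y axis, counts per 1000 panel transcripts, each axis from 0) in tumour cells by quartile of cells per bin (x axis, 1 sparse to 4 dense), 1 line per tumour. Dll1 goes down at each step in all 3 tumours, Wif1 goes up at each step in tumours 1 and 3, and in tumour 2 only its densest quartile, at 1.27, stands apart from 0.0896 to 0.141.

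Of the basal keratins above the blank codes, Krt5 alone passed as higher in dense tumour cells. Krt5, a keratin of basal mammary epithelium, was at 7.64, 3.39 and 4.61 in dense and 7.35, 2.31 and 1.90 in sparse bins (log2 fold change 0.77 ± 0.22, adjusted p = 0.0162, edgeR). The arms overlapped, and in tumour 1 they were nearly equal, with dense the lower arm in 27 of its 43 tiles. Without tumour 3 the value was 0.41 (adjusted p = 0.463, edgeR). When density was counted over gated tumour cells instead of all cells, the Krt5 value turned to -0.063 and did not pass. Cells with no Cdh1 transcript had Krt5 at 10.7, 5.25 and 6.59 in dense and 9.39, 2.53 and 3.27 in sparse bins. Krt15, another basal keratin, was at 0.960, 0.235 and 0.971 in dense and 0.488, 0.175 and 0.367 in sparse tumour cells (1.08 ± 0.20, adjusted p = 0.0004, edgeR). All 3 sparse sums and the dense sum of tumour 2 lay under the highest blank code, so its fold is a ratio to a level not told apart from false decoding. Of 7 basal genes tested these 2 passed, beside 19.9% of all genes, with a median of 0.28 over the 7. Krt14 (0.37 ± 0.22), Krt17 (0.09 ± 0.22) and Trp63 (0.28 ± 0.21), the transcription factor p63 of basal cells, did not pass.

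Genes of dividing cells passed as higher in dense bins over the 3 tumours, while tumour 1 differed from tumours 2 and 3. Mki67, the proliferation marker Ki-67, was at 8.73, 4.99 and 6.84 in dense and 11.9, 2.24 and 3.87 in sparse bins. Dense was the lower arm in tumour 1 (TMM-scaled log2 ratio -0.33) and the higher in tumours 2 and 3 (1.25 and 1.03). The fitted value was 0.66 ± 0.22 with an adjusted p of 0.0337 in edgeR, which became 0.268 with the robust form of the same test. Top2a, the topoisomerase of dividing cells, was at 3.25, 2.25 and 2.44 against 3.51, 1.10 and 1.49 (0.69 ± 0.23, adjusted p = 0.0318, edgeR). In tumour 1 its plain level was lower in dense bins, and its TMM-scaled log2 ratio was 0.01. Ccnd1, cyclin D1, followed the same split, with 14.7, 18.3 and 17.8 against 22.7, 12.5 and 12.8, and did not pass (0.28 ± 0.18). Mki67 kept its split in cells with no Cdh1 transcript, at 5.98, 3.11 and 5.55 in dense and 6.80, 1.81 and 2.80 in sparse bins.

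A further 5 named genes were also higher in dense bins. Cpt1a, which lets fatty acids into mitochondria, was at 3.81, 2.42 and 2.43 in dense and 2.74, 1.38 and 1.91 in sparse bins (log2 fold change 0.69 ± 0.21, adjusted p = 0.0252, edgeR). Mylk, the kinase of myosin light chains, was at 1.43, 1.16 and 1.45 against 1.16, 0.789 and 0.889 (0.66 ± 0.21, adjusted p = 0.0298, edgeR). Each was higher in dense bins of all 3 tumours. Cldn4, a tight junction claudin, was at 20.4, 11.3 and 25.2 against 18.0, 7.02 and 23.7 (0.46 ± 0.15, adjusted p = 0.0303, edgeR). Flna, filamin A, which cross-links actin, was at 27.0, 21.2 and 26.5 against 22.5, 18.0 and 22.6 (0.39 ± 0.13, adjusted p = 0.0385, edgeR), the 1 of 5 actin and contractile genes to pass. Myd88, an adaptor of innate immune receptors, was at 6.37, 4.26 and 4.75 against 4.83, 3.69 and 3.13 (0.54 ± 0.19, adjusted p = 0.0426, edgeR). Cpt1a and Myd88, like Fzd2, went up at each step over the 4 quartiles in all 3 tumours, the other named higher genes in 2 tumours or fewer and Chad in 0.

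Further groups are given beside the 19.9% of all genes tested that passed, 8.59% as higher and 11.3% as lower. Hippo, TGF-beta and BMP, interferon, stress and inflammatory genes lay under that share. The progenitor-linked, transition and luminal groups, of 6, 8 and 2 genes, lay above it. Of genes not above the highest blank code in all 6 sums, 17.2% passed as lower. Of 4 Hippo pathway genes 0 passed in edgeR (1 higher and 0 lower at an unadjusted p of 0.05), among them Wwc1, the upstream regulator KIBRA, at 0.25 ± 0.12, and the factors Tead1 (0.11 ± 0.20), Tead2 (-0.28 ± 0.18) and Tead3 (0.20 ± 0.16). Of 11 TGF-beta and BMP genes 0 passed in edgeR (3 higher and 0 lower unadjusted), the nearest being the ligand Tgfb3 (0.34 ± 0.13, adjusted p = 0.0554, edgeR) and the target Id2 (0.42 ± 0.16, adjusted p = 0.0556). The lineage factors Sox9 and Gata3 were at 0.17 ± 0.13 and 0.02 ± 0.12, and H2-K1, an MHC class I gene, at 0.32, none past the threshold. Of 10 interferon genes Cxcl10 alone passed, as lower by -0.40, where the blank codes had a median of -0.29, and of 7 stress and immediate early genes Fosb alone, also as lower. Fosb, an AP-1 factor, was at 0.656, 0.455 and 0.718 in dense and 1.53, 0.618 and 1.61 in sparse bins (-0.80 ± 0.21, adjusted p = 0.0098, edgeR), above the highest blank code in 5 of 6 sums. Among 20 inflammatory genes Il33 alone passed, as higher, and among 6 progenitor-linked genes Aldh1a3 and Lgr5, as lower. Lgr5, at -0.36, lay near the blank median of -0.29. Aldh1a3 was at -0.72 ± 0.19 (adjusted p = 0.0098, edgeR). With density counted over gated cells it was at 0.23 ± 0.42 and did not pass. Of 8 factors of epithelial-mesenchymal transition Foxc2 was higher (0.84 ± 0.14) and Zeb1 lower (-0.49 ± 0.15). None of the 8 was above the highest blank code in all 6 sums. Wap, a milk protein, was the 1 of 2 luminal genes to pass as higher (log2 fold change 0.76 ± 0.25). Its TMM-scaled log2 ratio was 2.06 in tumour 2 and 0.04 and 0.25 in tumours 1 and 3. Like the transition factors, Cxcl10, Il33, Aldh1a3, Lgr5 and Wap were not above the highest blank code in all 6 sums.

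Of the markers of other cells, those that passed were lower in dense bins except Pdgfra. The 2 endothelial markers summed to 0.806, 0.878 and 0.605 in dense and 1.84, 1.14 and 0.793 in sparse tumour cells, and 0 of them passed in edgeR, both being lower at an unadjusted p of 0.05 (Cdh5 -0.51 ± 0.19, adjusted p = 0.0519; Pecam1 -0.49 ± 0.19, adjusted p = 0.0656). The 7 macrophage or monocyte markers summed to 1.65 to 3.32 in dense and 2.47 to 5.12 in sparse bins. Of these, Cd163 (-1.03 ± 0.15) and Ccl8 (-0.69 ± 0.14) passed as lower. The 11 T or NK cell markers summed to 1.52 to 1.94 against 2.20 to 2.32, with 4 lower (Prf1, Gzmb, Klrb1c and Ctla4). Among genes not above the highest blank code in all 6 sums, 17.2% were called lower. The 11 markers had a median log2 fold change of -0.29, and so did the blank codes. The fibroblast markers, Col1a1 included, summed to 16.4 to 21.4 against 12.7 to 26.4, and of 8 tested Pdgfra was higher and Dpt lower. The 3 pericyte markers summed to 11.5 to 13.7 against 11.2 to 15.6, most of it from Notch3, which tumour cells can also express. The adipocyte marker Lep and 1 of 3 neutrophil markers, S100a9 (-0.42 ± 0.14), were lower. The neutrophil marker S100a8 went the other way (0.38 ± 0.14, adjusted p = 0.0519, edgeR). Csf3r was at -0.46 ± 0.18 (adjusted p = 0.0733, edgeR), and neither of them passed. Of the pericyte markers 0 of 3 and of the dendritic markers 0 of 1 passed in edgeR (0 of them at an unadjusted p of 0.05). Apart from Postn, Notch3, Cx3cr1 and Csf3r, none of these was above the highest blank code in all 6 sums. In tumour cells with no transcript of any of the 37 markers of other cells, Wif1 was the single gene that passed, at 2.73, and 21 of the 22 higher genes were still tested and kept their sign. How far transcripts of neighbouring cells take part in any of the differences, that of Wif1 included, was not tested.

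Among genes above the highest blank code in every sum, the tumours disagreed most on Arg1, Slpi and Wnt7b, and none of these passed. Called genes could also differ widely between tumours, such as Mki67 and Krt5 in that set and Wap outside it. Arg1, arginase 1, was at 3.72, 4.69 and 2.32 in dense and 7.09, 1.64 and 3.47 in sparse tumour cells. Its log2 ratios after TMM scaling were -0.81, 1.61 and -0.37. Slpi, a secreted protease inhibitor, had TMM-scaled log2 ratios of 2.10, -0.26 and 0.14, and the Wnt ligand Wnt7b 1.50, -0.35 and -0.18. Wnt7b was thus higher in dense bins of tumour 1 alone and Arg1 of tumour 2 alone, while Slpi was far higher in tumour 1 and differed little in the others. Of all 51 called genes, 49 had 1 sign of the TMM-scaled ratio in 3 of 3 tumours, the exceptions being Mki67 and Cav1. In plain levels the sign also turned for some of the 49. Among these were Top2a in tumour 1 and Jag1 in tumour 3, both lower in dense bins there. The arms did not overlap for 23 of the 51, and for 59 of the 256 genes tested.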

How the data were processed

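Per the file headers, the authors deposited a whole-number count of transcripts for each cell, gene and blank code, with no normalization, and a table with the centre and volume of each cell. No unit stands in the headers, so µm and µm3 are assumptions based on the size of the cells. The tools for decoding and segmentation are not named in these sources; the submitters' processing notes name Scanpy 1.9.3, with no role. In every cell the genes and blank codes summed to the deposited total, and 0 cell identifiers were shared between tumours. No doublet caller was run, and transcripts of a neighbouring cell can fall within a cell's outline.

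The members and the gene lists were chosen with earlier results of these data known. Summing the gated cells of each arm gave 12391889, 15429915 and 12894692 panel transcripts in dense bins of tumours 1, 2 and 3 and 3813255, 1833093 and 1900971 in sparse bins. Tests used R 4.3.3 and edgeR 4.0.16, with TMM factors, filterByExpr and a two-sided quasi-likelihood F-test. The tumour was a block because both arms came from the same section. P-values were adjusted by Benjamini-Hochberg over all 256 tested genes and called under 0.05. Every fold change is a log2 value, dense over sparse, and ± gives its SE. Ratios of single tumours are log2 values after TMM scaling, and levels are given without it. On counts simulated for this comparison with 256 genes, changing genes above the median level, 30 of 30 genes changed by a log2 fold of 1 were called, 26 of 30 at 0.5, and 4 of 196 unchanged ones. The spread of the simulated counts was a fixed setting, not one estimated from these data, so these counts do not give the power of the comparison. Named genes were up to 12 in each direction with the largest fold change among those past the threshold. They also had 1 sign of the TMM-scaled ratio in 3 of 3 tumours and a sum above the highest blank code in all 6 sums. In addition, members of fixed lists were counted, with examples in order of level. The alternatives varied the normalization, tool, block, bins, gate, depth, cell volume and position, each in turn.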

Additional observations from a re-analysis of the deposited data

How the results depend on the processing

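The counts of 22 higher and 29 lower genes moved by over 1.5 times under most alternatives, all in edgeR unless DESeq2 1.42.0 is named. Scaling by library size alone gave 5 and 23, with the median log2 fold change of all genes at -0.22 in place of -0.07. Counts per cell volume gave 7 and 1, with that median at 0.07. The fit with no replicate block gave 0 and 0 (6 and 17 at an unadjusted p of 0.05); pairing by tumour comes from the section that both arms share. Leaving out 1 tumour gave 1 to 28 higher and 0 to 36 lower genes; without tumour 2 or without tumour 3 these were 1 and 0. Bins of 50 µm gave 0 and 0 (30 and 43 unadjusted), bins of 200 µm 1 and 0, deciles 1 and 0, and a grid shifted by 50 µm 14 and 17. Density counted over gated cells gave 13 and 13, of which 4 and 7 were shared with the reported calls. Bins away from the tissue edge gave 10 and 9, and bins with under 5% Col1a1-rich cells 5 and 0. At least 100 transcripts per cell gave 5 and 10, no Cdh1 condition 13 and 13, at least 3 Cdh1 transcripts 1 and 0, under 2% Col1a1 1 and 0, cells without markers of other classes 1 and 0, cells of middle volume 4 and 0, and 1000 µm tiles 1 and 0. Cells thinned to 50 transcripts gave 18 and 16. A trend over 4 quartiles gave 62 and 75, and DESeq2 gave 39 and 38. Added after the data were seen, inner bins with under 5% Col1a1-rich cells gave 4 and 0, with cells of middle volume 10 and 5, and genes above background in 3 or more sums 1 and 0. Under the alternatives run, all 22 higher genes that were tested kept their sign except Krt5 at -0.063 with density counted over gated cells. Of the 29 lower genes, 27 kept it there (Aldh1a3 turned to 0.23 ± 0.42 and Il10 to 0.11 ± 0.13). In inner bins with cells of middle volume 28 kept it (Gzmb turned to 0.042 ± 0.27). Where 0 lower genes passed, 10 to 46 did at an unadjusted p of 0.05 in edgeR. The cause of these moves was not tested. Sparse sums held fewer transcripts and a higher share of blank codes, which limits what can be said of genes near the blanks.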
